A study of Mus musculus with 83 samples.

Results

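Macrophage genes were followed through the adult life of the colon with 10 transcripts, Csf1r, Adgre1, Cd68, Cx3cr1, C1qa, C1qb, C1qc, Mrc1, Cd163 and Lyz2, chosen by symbol as widely used macrophage genes from a count table of 37764 genes. RNA was taken from the proximal colon of 83 male C57BL/6J/Ukj mice, for which the labels name no treatment or genetic change, at 3 mo (n = 16), 9 mo (n = 16), 15 mo (n = 16), 24 mo (n = 17) and 28 mo (n = 18). Library preparation of the polyA RNA fell into 3 batches, with all 5 ages present in each of them. Read pairs counted on genes ranged from 23026370 to 75838290 per mouse, with a median of 35495123. Cd68, Csf1r and Lyz2 are treated below as general genes of the macrophage lineage, and the other 7 as genes of mature tissue-resident macrophages.

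Macrophages of the colon lie beneath the epithelium, around vessels and crypts and within the muscle layer, where they take up bacteria and dying cells. Most are renewed throughout life from blood monocytes, which lose monocyte genes and gain Cx3cr1, C1q chains and scavenger receptors as they settle, while some populations near nerves and vessels are long-lived. Their survival depends on the receptor Csf1r and its ligands Csf1 and Il34, and the transcription factor PU.1, encoded by Spi1, acts across the lineage. In bulk tissue, fewer macrophages and less RNA of a gene per macrophage cannot be told apart.

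All 10 genes passed the filter on low counts, as did 18325 genes in all. On the GRCm38 build, C1qb (chromosome 4, 136880129 to 136886187), C1qc (136889804 to 136893065) and C1qa (136895917 to 136898803) lie next to each other on the minus strand. Cd68 lies on chromosome 11 from 69664213 to 69666153, Cx3cr1 on chromosome 9 from 119901616 to 120069879 and Lyz2 on chromosome 10 from 117277331 to 117282321, all on the minus strand. Mrc1 on chromosome 2 (14229392 to 14332057), Cd163 on chromosome 6 (124304656 to 124330527) and Adgre1 on chromosome 17 (57358691 to 57483527) lie on the plus strand. Lyz2 has a close paralog, Lyz1, just beside it (117287797 to 117292868), and since the authors kept uniquely mapped reads, pairs from the sequence they share could be lost from either gene.

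RefSeq promoter windows on GRCm38.p6, which run from 250 bases before the gene start to 50 bases after it, were found for 7 of the 10 genes, but not for Csf1r, Adgre1 and C1qa. The 250 bases before the start are printed for 4 of them, C1qb and Cd68, which were called at 24 mo against 15 mo, and Mrc1 and Cd163, which were not. The difference between these genes was not tested. Capitals mark the core of the PU.1 motif, GAGGAA or TTCCTC on the other strand.
C1qb, chr4:136886201-136886450, minus strand: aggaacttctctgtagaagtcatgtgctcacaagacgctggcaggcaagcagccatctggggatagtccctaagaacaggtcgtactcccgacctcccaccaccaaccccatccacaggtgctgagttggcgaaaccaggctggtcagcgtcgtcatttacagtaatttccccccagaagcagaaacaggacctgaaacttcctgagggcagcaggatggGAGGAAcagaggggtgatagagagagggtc
Cd68, chr11:69666171-69666420, minus strand: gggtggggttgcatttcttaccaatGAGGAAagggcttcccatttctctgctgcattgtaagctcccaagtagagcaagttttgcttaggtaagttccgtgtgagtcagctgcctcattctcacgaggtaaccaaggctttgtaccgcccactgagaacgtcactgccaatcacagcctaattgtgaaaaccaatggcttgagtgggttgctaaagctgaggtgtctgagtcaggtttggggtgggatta
Mrc1, chr2:14229164-14229413, plus strand: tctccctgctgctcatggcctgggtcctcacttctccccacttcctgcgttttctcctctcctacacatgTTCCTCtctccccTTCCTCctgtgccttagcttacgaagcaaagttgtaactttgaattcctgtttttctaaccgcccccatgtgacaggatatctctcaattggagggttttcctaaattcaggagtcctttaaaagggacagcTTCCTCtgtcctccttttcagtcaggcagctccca
Cd163, chr6:124304401-124304650, plus strand: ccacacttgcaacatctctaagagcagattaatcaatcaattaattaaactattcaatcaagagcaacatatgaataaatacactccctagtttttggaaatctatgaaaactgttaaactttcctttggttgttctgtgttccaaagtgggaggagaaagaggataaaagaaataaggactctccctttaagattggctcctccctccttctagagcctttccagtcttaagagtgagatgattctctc
The motif core occurs 1 time in the printed stretch of C1qb, 1 time in that of Cd68, 3 times in that of Mrc1 and 0 times in that of Cd163. Within the whole windows of 300 bases, 4 of the 7 genes (C1qb, C1qc, Cd68 and Mrc1) held it, against 28.3% of 32851 windows of the same length. The AP-1 letters TGANTCA were found in the window of Cd68 alone among the 7, against 7.81% of all windows. These are matches of letters and not sites of binding.

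Levels are given in CPM, read counts scaled to library size, and in TPM, which also divides by gene length and allows genes to be compared. Per length, Lyz2 was the most abundant of the 10 genes at 3 mo with a mean of 362 TPM, followed by C1qa (141), C1qb (118) and C1qc (63.8). Cd68 (20.7 TPM), Csf1r (19.7), Adgre1 (13.1), Cx3cr1 (9.91) and Mrc1 (9.49) were lower, and Cd163 was the lowest at 2.65 TPM. The median raw count per mouse ran from 219 for Cd163 to 5978 for Lyz2, and no mouse had fewer than 79 counts of any member, so all were well above the counting limit.

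The calls between neighbouring ages all fell between 15 mo and 24 mo. Of the 10 genes, 7 rose at 24 mo against 15 mo and 0 fell, where 6.28% of all genes tested rose, 7.24% fell and 13.5% changed in either direction (edgeR quasi-likelihood test, adjusted p below 0.1). The count was 3 with no filter on low counts, 4 with scores of smooth muscle and epithelium as covariates and 1, Cx3cr1, at a threshold of 0.05. The median log2 fold change over the 10 genes was 0.24 against 0.0016 over all genes. At 9 mo against 3 mo and at 15 mo against 9 mo 0 of the 10 genes were called in the edgeR fit and 0 had an unadjusted p under 0.05, and DESeq2 called 0 as well, where 8.69% and 0.431% of all genes changed. At 28 mo against 24 mo again 0 were called by edgeR or DESeq2 (11.7% of all genes), and 1, Cd163, had an unadjusted p under 0.05. In all, 8 of the 10 genes differed with age in the joint test of the 5 ages (54.9% of all genes), the exceptions being Adgre1 (adjusted p = 0.19) and Mrc1 (adjusted p = 0.21). The departure from a straight line in age passed the threshold for 0 of them with edgeR and with DESeq2 (16.2% of all genes), with 1, Cx3cr1, at an unadjusted p under 0.05, so a step between 15 mo and 24 mo was not set apart from a steady rise.

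**Figure D1:**
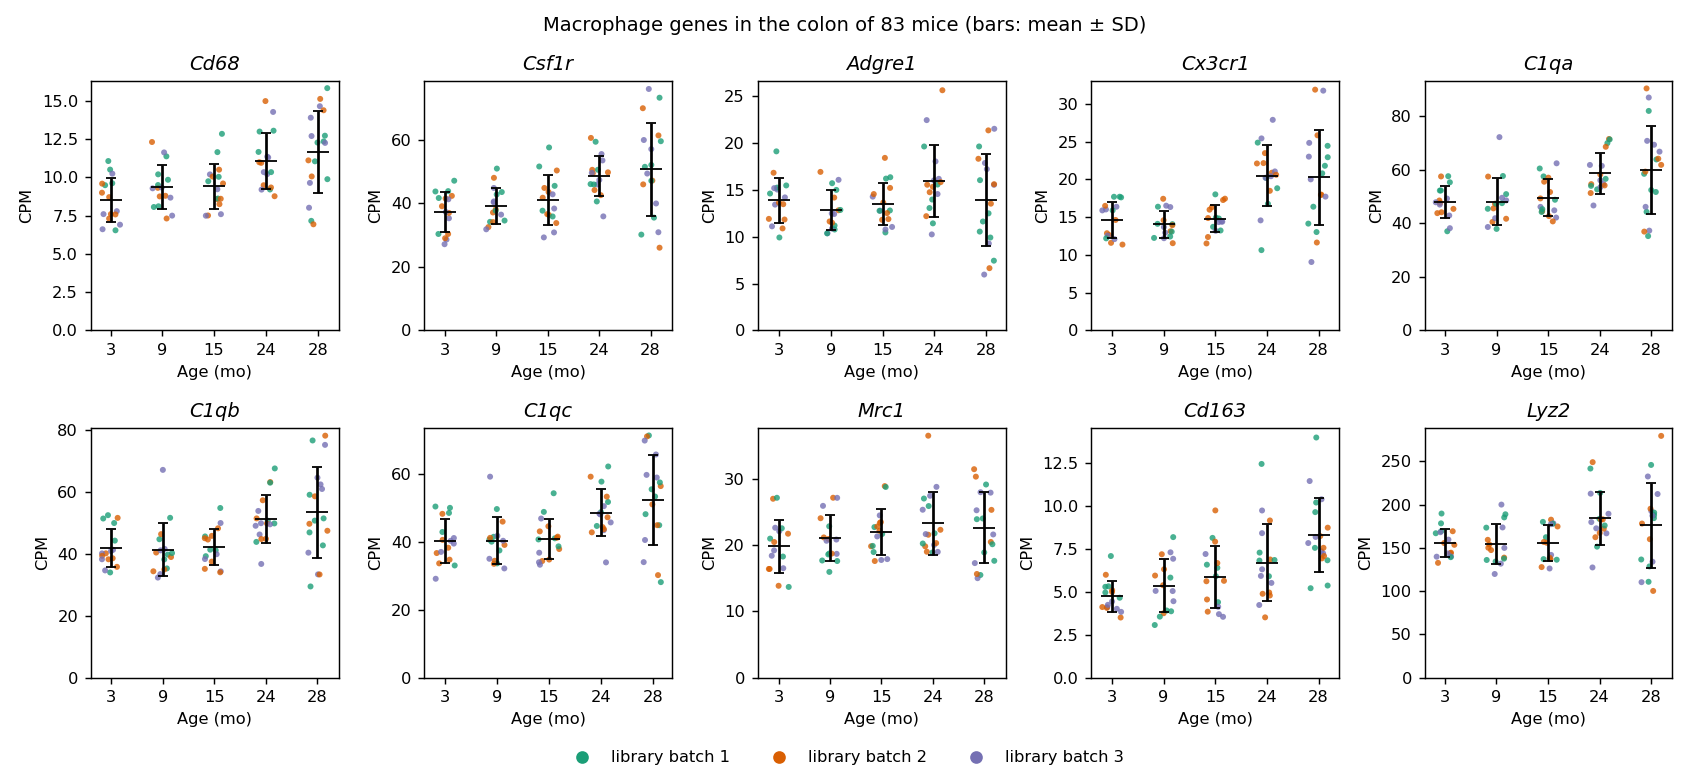
Level in CPM (read counts scaled to library size, vertical axis, from 0) of the 10 macrophage genes in each of the 83 mice against age in months, with 1 point per mouse colored by library batch and bars for the mean and SD. The points of 24 mo and 15 mo overlap in every panel, least for Cx3cr1, where 14 of 17 mice at 24 mo lie above all mice at 15 mo, and the points at 28 mo are widely spread, as for Adgre1 from 5.96 to 21.5 CPM.

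Csf1r, the receptor that keeps macrophages alive, lies on the plus strand of chromosome 18 from 61100598 to 61132149. It had a lowest, median and highest level of 27.1, 38.2 and 47.1 CPM at 3 mo, 31.8, 37.9 and 50.9 at 9 mo, 29.3, 40.1 and 57.6 at 15 mo, 35.9, 49.5 and 60.6 at 24 mo and 26.0, 50.4 and 76.0 at 28 mo. The groups overlapped throughout, yet 16 of 17 mice at 24 mo lay above the median at 15 mo. The log2 fold change was 0.26 (SE 0.10, adjusted p = 0.090) at 24 mo against 15 mo and 0.45 (SE 0.10, adjusted p = 0.00012) at 28 mo against 3 mo. Cd68, a lysosomal membrane protein of phagocytes, had a lowest, median and highest level of 6.54, 8.25 and 11.1 CPM at 3 mo, 7.49, 9.41 and 12.8 at 15 mo, 8.76, 10.9 and 15.0 at 24 mo and 6.93, 12.3 and 15.8 at 28 mo. It rose by a log2 fold change of 0.24 (SE 0.09, adjusted p = 0.077) from 15 mo to 24 mo and of 0.45 (SE 0.09, adjusted p = 1.9e-05) from 3 mo to 28 mo, when 11 of 18 mice lay above every mouse at 3 mo.

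Adgre1, which encodes the surface antigen F4/80 of mature mouse macrophages, was at much the same level at 3 mo and at 28 mo. Its lowest, median and highest levels were 9.91, 13.9 and 19.1 CPM at 3 mo, 10.4, 12.8 and 18.4 at 15 mo, 10.2, 15.5 and 25.6 at 24 mo and 5.96, 14.5 and 21.5 at 28 mo. At 28 mo 3 of 18 mice lay above all mice at 3 mo and 5 lay below all of them. The log2 fold change was 0.24 (SE 0.12, adjusted p = 0.20) at 24 mo against 15 mo and 0.01 at 28 mo against 3 mo, with a 95% interval from -0.22 to 0.25. Of the 10 pairs of ages, only 24 mo against 9 mo was called for this gene in the edgeR fit.

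Cx3cr1, the receptor for fractalkine that marks intestinal macrophages, showed the largest rise of the 10 genes between 15 mo and 24 mo. Its lowest, median and highest levels were 11.4, 15.3 and 17.7 CPM at 3 mo, 11.5, 13.8 and 17.4 at 9 mo, 11.5, 14.6 and 18.0 at 15 mo, 10.6, 20.6 and 27.9 at 24 mo and 9.06, 20.4 and 31.9 at 28 mo. The first 3 ages were alike, and 14 of 17 mice at 24 mo lay above every mouse at 15 mo, while 1 lay below all of them. The log2 fold change was 0.47 (SE 0.10, adjusted p = 0.0025), with values of 0.30, 0.50 and 0.61 within library batches 1, 2 and 3. Against 24 mo, the level at 28 mo differed by a log2 fold change of -0.01 (95% interval from -0.21 to 0.19).

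The 3 chains of C1q, the recognition part of the first complement component, which tissue macrophages secrete, rose at 24 mo and gave similar fitted values. C1qb had a lowest, median and highest level of 34.04, 40.2 and 52.6 CPM at 3 mo, 32.4, 40.1 and 67.2 at 9 mo, 34.1, 41.3 and 54.9 at 15 mo, 36.8, 49.9 and 67.7 at 24 mo and 29.5, 51.2 and 78.3 at 28 mo. For each of C1qa, C1qb and C1qc, 16 of 17 mice at 24 mo lay above the median at 15 mo, and the ranges overlapped. The log2 fold changes at 24 mo against 15 mo were 0.24 (SE 0.09, adjusted p = 0.080) for C1qa, 0.28 (SE 0.10, adjusted p = 0.051) for C1qb and 0.26 (SE 0.09, adjusted p = 0.064) for C1qc, and at 28 mo against 3 mo they were 0.32, 0.35 and 0.38.

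Neither scavenger receptor was called at 24 mo against 15 mo with edgeR. Mrc1, the mannose receptor CD206, had a lowest, median and highest level of 13.7, 19.8 and 27.1 CPM at 3 mo, 17.6, 21.9 and 28.9 at 15 mo, 18.9, 21.6 and 36.5 at 24 mo and 15.0, 22.7 and 31.4 at 28 mo, and the groups overlapped widely. It gave 0.08 (SE 0.10, adjusted p = 0.63) at 24 mo against 15 mo on the log2 scale, and 0.20 (SE 0.09, adjusted p = 0.086) at 28 mo against 3 mo, a call that was lost without the 4 mice low in smooth muscle markers described below (0.16, adjusted p = 0.21). Cd163, the receptor for complexes of hemoglobin and haptoglobin, was the gene with the largest change from 3 mo to 28 mo. Its lowest, median and highest levels were 3.50, 4.54 and 7.08 CPM at 3 mo, 3.06, 5.21 and 8.18 at 9 mo, 3.54, 5.77 and 9.73 at 15 mo, 3.51, 6.31 and 12.4 at 24 mo and 5.20, 7.70 and 13.98 at 28 mo. The median was higher at each later age, and all 18 mice at 28 mo lay above the median at 3 mo. None of the 4 steps between neighbouring ages was called for Cd163 in the edgeR fit (log2 fold changes of 0.18, 0.13, 0.19 and 0.31), but 28 mo against 3 mo gave 0.81 (SE 0.14, adjusted p = 1.2e-06), with 0.65, 0.74 and 1.08 within library batches 1, 2 and 3.

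Lyz2, the lysozyme of macrophages, monocytes and neutrophils, had a lowest, median and highest level of 132.6, 154.5 and 189.6 CPM at 3 mo, 126.1, 156.4 and 182.6 at 15 mo, 127.3, 179.7 and 249.05 at 24 mo and 100.2, 185.8 and 279.4 at 28 mo. At 24 mo 8 of 17 mice lay above every mouse at 15 mo. The log2 fold change was 0.24 (SE 0.09, adjusted p = 0.079) at 24 mo against 15 mo and 0.17 (SE 0.09, adjusted p = 0.11) at 28 mo against 3 mo. Its paralog Lyz1, which Paneth cells of the small intestine make, was lower at 28 mo. It went from a mean of 6.70 CPM at 3 mo (SD 2.17, n = 16) to 4.29 CPM at 28 mo (SD 1.24, n = 18) (log2 fold change -0.64, adjusted p = 0.00069). At 24 mo against 15 mo, where Lyz2 was called, Lyz1 was not (0.11, adjusted p = 0.71). Reads lost between these paralogs were not measured.

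**Figure D2:**
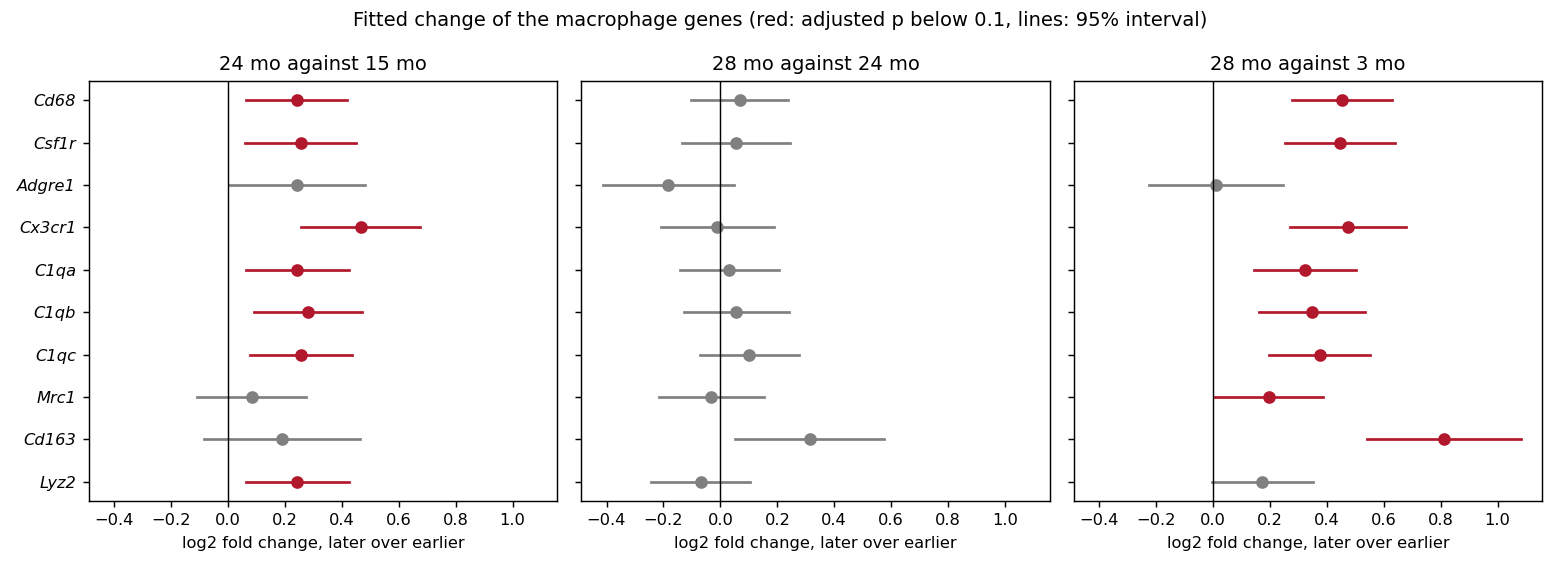
Fitted log2 fold changes (horizontal axis, later over earlier age) of the 10 macrophage genes with 95% intervals as lines, in 3 comparisons, with genes past the threshold in red. At 24 mo against 15 mo 7 genes are red, at 28 mo against 24 mo none is, and at 28 mo against 3 mo 8 are, with Cd163 farthest to the right at 0.81 and Adgre1 at 0.01.

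Over the whole range of ages, 8 of the 10 genes were higher at 28 mo than at 3 mo and 0 were lower, where 23.5% of all genes tested were higher, 25.9% were lower and 49.4% changed in either direction. The median log2 fold change over the 10 genes was 0.36 against -0.01 over all genes. Adgre1 and Lyz2 were the genes not called. At 24 mo against 3 mo, which shares its control mice with this comparison, 9 of the 10 were higher, against 16.7% of all genes (34.5% in either direction), and Adgre1 was not called. The 10 genes gave 0 calls with edgeR at 15 mo against 3 mo (7.75% of all genes), with 1, Cd163, at an unadjusted p under 0.05, and 8 were called, all higher, at 24 mo against 9 mo, 7 at 28 mo against 9 mo and 7 at 28 mo against 15 mo. Of all genes, 15.5%, 40% and 42.4% were called in either direction in these comparisons. Csf1r, Cd68, Cx3cr1, C1qa, C1qb and C1qc were each higher at 24 mo and at 28 mo than at any of the 3 younger ages, Cd163 was higher at 28 mo than at each of them and at 24 mo than at 3 mo, and Lyz2 was higher than at the younger ages at 24 mo alone in the edgeR fit. Within the library batches, 9 of the 10 genes had a positive log2 fold change in all 3 batches at 24 mo against 15 mo, the exception being Cd163 with -0.14 in batch 2, and likewise 9 of the 10 at 28 mo against 3 mo, the exception being Adgre1 with -0.22 in batch 1.

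Mature resident and general macrophage genes were compared within each mouse as the mean log2 CPM of the 7 resident genes minus that of the 3 general genes. This difference had a lowest, median and highest value of -1.05, -0.84 and -0.64 at 3 mo, -1.11, -0.90 and -0.76 at 9 mo, -0.96, -0.87 and -0.70 at 15 mo, -0.99, -0.87 and -0.74 at 24 mo and -1.06, -0.86 and -0.66 at 28 mo. The ranges overlapped at every age, and the medians, from -0.90 to -0.84, differed by less than the spread among mice of the same age (SD 0.07 to 0.11). At 24 mo against 15 mo 4 of the 7 resident and all 3 general genes rose, where 6.28% of all genes did, and at 28 mo against 3 mo 6 of 7 and 2 of 3 were higher, where 23.5% of all genes were. The resident genes not called at 24 mo against 15 mo were Adgre1, Mrc1 and Cd163, and those not called at 28 mo against 3 mo were Adgre1 and, among the general genes, Lyz2. Without Lyz2, the most abundant of the general genes, the median difference ran from 0.08 at 9 mo to 0.20 at 3 mo. With the median over the genes of each group in place of the mean, the difference at 28 mo minus that at 3 mo was -0.28 on the log2 scale, against -0.01 with the mean. The middle resident gene by mean log2 CPM was Mrc1 (4.28 at 3 mo and 4.46 at 28 mo). The middle general gene was Csf1r (5.20 and 5.60). The value from the median thus rests largely on Mrc1 and Csf1r and does not describe the groups as a whole. These values are a description with no test.

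**Figure D3:**
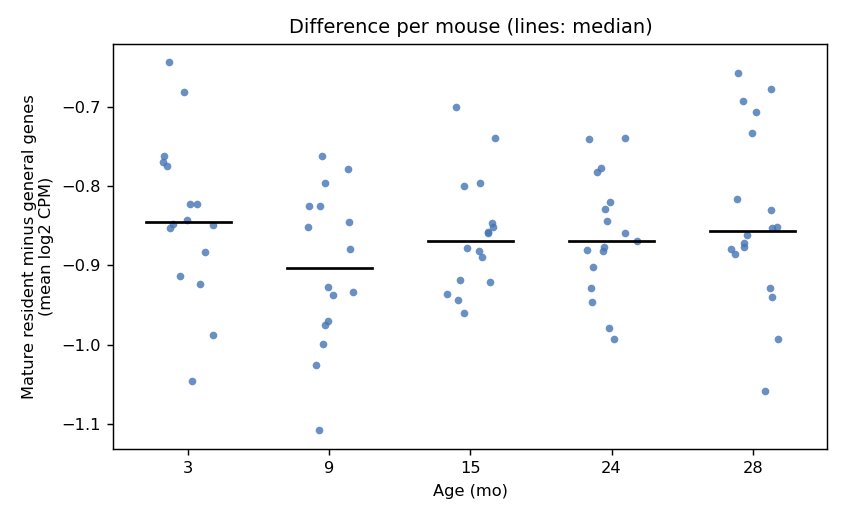
Difference between mature resident and general macrophage genes (vertical axis, mean log2 CPM of the resident genes minus that of the general genes) in each mouse against age in months, with 1 point per mouse and a line at the median. The 5 medians lie between -0.90 and -0.84, and the clouds of points overlap.

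The coefficient of variation of CPM among mice was largest at 28 mo in 9 of the 10 genes, where it was so in 23.3% of the 18325 genes tested. The macrophage genes had a median over the genes of 27.6% at 28 mo, 16.5% at 24 mo and 16.6% at 3 mo, and the median over all genes was 14.1%, 12.2% and 14.3%. The 9 genes rose and fell together among mice, as given below, so they are not 9 separate observations, and the spread was not tested. The exception was Cd163, with 25.9% at 28 mo and 33.6% at 24 mo. Adgre1 had the widest spread, 35.5% at 28 mo against 17.1% at 3 mo. The same mice lay at the ends of most genes: replicates 12, 13 and 17 were among the lowest 3 of the 18 mice in 9, 7 and 9 of the 10 genes, and replicates 4, 5 and 6 were among the highest 3 in 8, 9 and 8. Each of the 3 low mice was below the median at 3 mo in 9 of 10 genes. The 3 low mice came from 3 different batches and had 24228744 to 29273090 read pairs on genes, under the median of 35459059.5 at this age, whereas the 3 high mice ranged from 25813697 to 75838290, the most of any mouse. With library size as a covariate, or without the most deeply sequenced mouse, both settings chosen after seeing the data, the numbers of genes called stayed at 7 and 8 in the comparisons of 24 mo with 15 mo and of 28 mo with 3 mo.

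With the mice of all ages pooled, the macrophage genes rose and fell together among mice, with lower values of r for Cd163. After the means of age group and library batch were removed, the 36 pairs among the other 9 genes had Pearson's r between 0.61 and 0.97 over the 83 mice, with a median of 0.80, and Spearman's rho had a median of 0.80. All 36 passed a two-sided permutation test within age and batch with either measure, adjusted over 45 pairs, at an adjusted p of 1.2e-05, the smallest the 100000 resamples allow. Without the 2 mice farthest from the median the median r was 0.79, and within batches 1, 2 and 3 it was 0.81, 0.83 and 0.81. Over all 111923241 pairs of the 14962 genes with a mean of at least 1 CPM, treated the same way, the median r was -0.004, and 0.993% of pairs reached the r of the least correlated of the 36 pairs. C1qa and C1qb were the closest pair (r = 0.97). The genes of a pair were read from the same libraries and share their scaling.

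Cd163 shared little of this variation over all mice, with a median r of 0.16 over its 9 pairs, from -0.09 with Cx3cr1 to 0.42 with Mrc1 (permutation adjusted p = 0.00035). Spearman's rho had a median of 0.24 over these pairs, and was 0.45 with Mrc1 (permutation adjusted p = 0.00032). Within batches 1, 2 and 3 the median r was 0.02, 0.38 and 0.17, and without the 2 mice farthest from the median it was 0.20. Of the 9 pairs, 3 passed the permutation test with Pearson's r and 6 with Spearman's rho (adjusted p up to 0.48 and 0.84). Within single ages the picture differed. The median r of Cd163 with the other 9 genes was 0.25 at 3 mo, 0.52 at 9 mo, 0.69 at 15 mo, 0.01 at 24 mo and -0.18 at 28 mo, and the median rho was 0.23, 0.48, 0.66, 0.20 and -0.16. Of the 9 pairs at each age, 3 passed the permutation test at 9 mo and 6 at 15 mo with Pearson's r (2 and 5 with Spearman's rho), and 0 did at 3 mo, 24 mo and 28 mo, adjusted over 45 tests. Without the 2 mice farthest from the median of Cd163, the median r was 0.02, 0.41, 0.62, 0.13 and -0.23 at the 5 ages. The difference between ages was not tested. Over the same ages the median r among the other 9 genes was 0.73, 0.66, 0.79, 0.79 and 0.92, the highest value at the age at which that of Cd163 was the lowest.

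**Figure D4:**
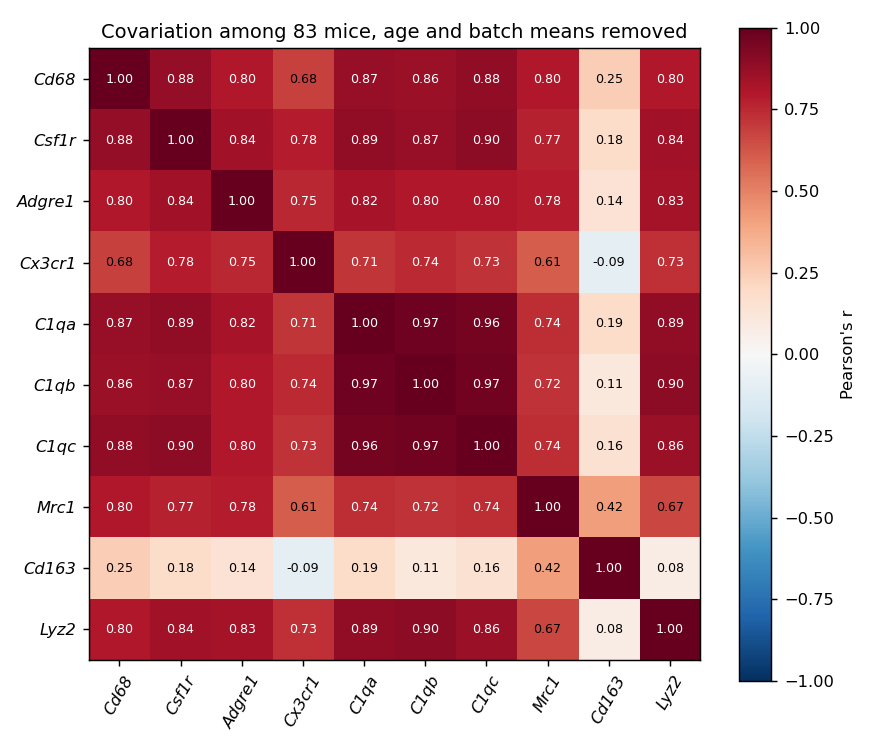
Pearson's r between each pair of the 10 macrophage genes over 83 mice, on log2 CPM after the means of age group and library batch were removed, with red for positive and blue for negative values. The block of 9 genes is red throughout, from 0.61 to 0.97, and the row and column of Cd163 are pale, from -0.09 to 0.42.

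The genes outside the 10 whose levels followed them most closely over the 83 mice, of 14952 genes with a mean of at least 1 CPM, were named by the highest Pearson's r, as a description. For C1qb they were Fcer1g (0.92), Cyth4 (0.89) and Tyrobp (0.88), of which Fcer1g and Tyrobp encode signaling adaptors of Fc and other myeloid receptors. For Cx3cr1 they were Mpeg1 (0.82), a pore-forming protein of phagocytes, Ms4a7 (0.79) and Tifab (0.79). For Lyz2 they were Laptm5 (0.87), Cyth4 (0.86) and Gm2a (0.86). Csf1r was followed by C1ra (0.89) and C1s1 (0.89), the proteases of the first complement component, and by Gm2a (0.88). For Cd163 the likest gene was F13a1 (0.75), the A subunit of coagulation factor XIII found in resident macrophages, followed by Fmo1 (0.58) and Vit (0.58).

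Genes of Fc and phagocytic receptors were mostly higher at the oldest age. Of 16 genes, 11 were higher at 28 mo than at 3 mo and 0 were lower (23.5% and 25.9% of all genes), with a median log2 fold change of 0.29 against -0.01 over all genes. Clec7a, the beta-glucan receptor Dectin-1, had a mean of 3.67 CPM (SD 1.16, n = 16) at 3 mo and of 9.07 CPM (SD 2.98, n = 18) at 28 mo, a log2 fold change of 1.29 (adjusted p = 3.8e-10), and Trem2, a lipid-sensing receptor, from 1.19 ± 0.25 to 2.78 ± 0.83 CPM, a log2 fold change of 1.21 (adjusted p = 5.4e-14). The smallest of the rises were those of Fcgr2b, the inhibitory Fc receptor (0.21), and Fcer1g (0.21). Already at 24 mo against 15 mo 7 of the 16 rose and 0 fell (6.28% and 7.24% of all genes), Trem2 (0.86) and Clec7a (0.82) before Cd36 (0.50), Itgb2 (0.36), Sirpa (0.28), Msr1 (0.28) and Axl (0.25). Both Trem2 and Clec7a had larger fitted log2 fold changes in both comparisons than any of the 10 macrophage genes, a difference that was not tested.

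Of the partners and receptors of C1q, 7 of 9 listed genes were tested. At 28 mo against 3 mo 4 were higher and 1 lower (23.5% and 25.9% of all genes), and at 24 mo against 15 mo 4 rose and 0 fell (6.28% and 7.24%). Those that rose were the same 4 genes in both, C1ra (log2 fold change 0.61 at 28 mo against 3 mo), Serping1, which encodes the C1 inhibitor (0.51), C1s1 (0.50) and Cd93 (0.16), and Calr, the chaperone calreticulin, was the gene that fell (-0.38, adjusted p = 1.2e-06). Of the proteases, C1rb and C1s2 did not pass the filter on low counts.

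Of the growth factors and their receptors, 6 of 10 tested genes were higher and 2 lower at 28 mo than at 3 mo, against 23.5% and 25.9% of all genes. Both ligands of Csf1r were among the higher, Csf1 from 17.9 ± 2.70 to 21.8 ± 4.12 CPM (log2 fold change 0.29, adjusted p = 0.00089) and Il34 from 3.88 ± 0.57 to 4.71 ± 1.23 CPM (0.29, adjusted p = 0.010). At 24 mo against 15 mo 3 of the 10 rose, Csf1 (0.24), Tgfbr2 (0.15) and Il10ra (0.26), and 0 fell, against 6.28% and 7.24% of all genes. Csf2rb, the shared chain of the GM-CSF receptor, showed the largest change at 28 mo against 3 mo (0.48), and the genes that fell were Csf2ra (-0.11) and Il10rb (-0.08). Cx3cl1, the ligand of Cx3cr1, was at 49.3 ± 6.75 CPM at 3 mo and 49.3 ± 4.15 CPM at 28 mo (log2 fold change -0.0025, adjusted p = 0.97). Of the 6 recruiting chemokines 1, Ccl3, was higher at 28 mo (0.58, adjusted p = 0.019), where 23.5% of all genes were. Ccl3 was at a low level, 0.37 ± 0.16 CPM at 3 mo and 0.55 ± 0.24 CPM at 28 mo.

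Among 12 lineage transcription factors, 4 were higher and 1 lower at 28 mo than at 3 mo, a share near that of all genes, of which 49.4% were called. Maf (0.48) and Klf4 (0.25) led, Spi1 was higher by 0.23 (adjusted p = 0.066) and by 0.29 at 24 mo against 15 mo (adjusted p = 0.080), and Cebpa fell (-0.28). Maf also serves other cells, and Klf4 and Cebpa are made by the epithelium too. Of 15 genes of long-lived resident macrophages, 8 were higher and 1, Folr2, was lower at 28 mo (-0.35, adjusted p = 0.062), against 23.5% and 25.9% of all genes, which also stand beside the next counts at this age. The largest rises were in Cd209f (0.65), a lectin, and Pf4 (0.42), and the smallest in Igf1 (0.22). Their courses differed. Cd209f had low means of 0.94, 1.79, 2.18, 1.88 and 1.46 CPM at 3, 9, 15, 24 and 28 mo. Those of Pf4 were 6.05, 6.45, 6.40, 7.59 and 8.14 CPM, and those of Igf1 11.8, 14.6, 15.2, 15.4 and 13.6 CPM. At 9 mo against 3 mo 4 of the 15 were already higher and 0 lower, where 8.69% of all genes changed. At 24 mo against 15 mo 3 rose, where 6.28% of all genes did, Timd4 (0.48), a receptor for dying cells, Lyve1 (0.30) and Stab1 (0.27), of which Lyve1 and Stab1 are also endothelial genes. Of 8 monocyte genes, 3 were higher and 3 lower at 28 mo, with Chil3 (2.54), F10 (0.97) and Itgam (0.39) higher and Vcan (-0.25) among the lower. Of these, Chil3 (1.40), F10 (1.04) and Itgam (0.26) also rose at 24 mo against 15 mo, and 0 of the 8 fell, against 6.28% and 7.24% of all genes. Chil3 was near the floor at 3 mo, at 0.14 ± 0.10 CPM. Of 8 inflammatory mediators tested, 5 were higher and 1 lower at 28 mo, among them S100a9 (1.47) and S100a8 (0.91), which neutrophils make in quantity and which were near the floor at 3 mo (means of 0.16 and 0.13 CPM), and Tnf (0.43), while Il1b was lower (-0.47, adjusted p = 0.091). Between 15 mo and 24 mo 3 of these 8 rose, S100a9 (1.45), S100a8 (1.09) and Tnf (0.42), where 6.28% of all genes did.

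**Figure D5:**
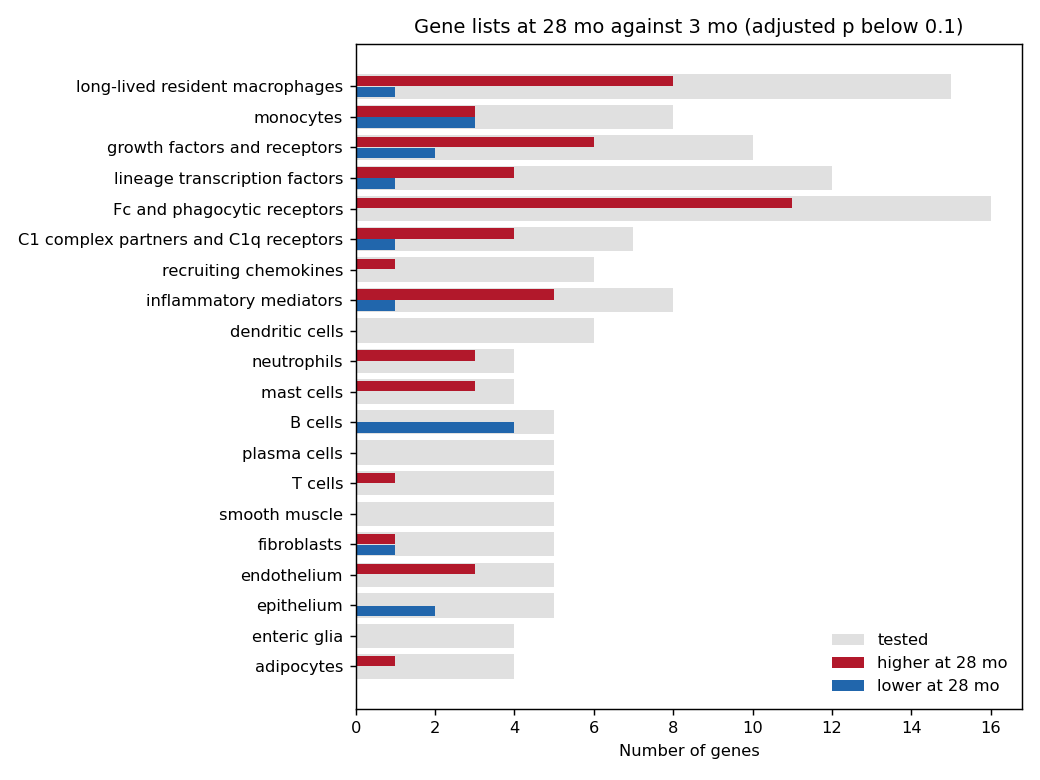
Number of genes (horizontal axis) in each of 20 lists that were tested (grey), higher (red) or lower (blue) at 28 mo than at 3 mo at an adjusted p below 0.1. Fc and phagocytic receptors have 11 red and 0 blue of 16, monocyte genes 3 and 3 of 8, and B cell genes 0 and 4 of 5.

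Markers of other cells moved in the same comparisons, in which 6.28% of all genes rose at 24 mo against 15 mo, and 23.5% were higher and 25.9% lower at 28 mo than at 3 mo. At 24 mo against 15 mo, 3 of 5 endothelial markers rose, Cdh5 (0.27), Pecam1 (0.24) and Kdr (0.18), as did 2 of 4 tested neutrophil markers, S100a9 (1.45) and S100a8 (1.09), 1 of 5 fibroblast markers, Dcn (0.35) and 1 of 6 dendritic cell markers, Itgax (0.33), which macrophages also express. The summed endothelial markers ranged from 62.0 to 117.3 CPM at 15 mo and from 91.0 to 122.3 CPM at 24 mo, and the summed neutrophil markers from 2.68 to 8.38 and from 2.78 to 6.85 CPM. The neutrophil genes Ngp and Camp had 0 counts in 61 and 13 of the 83 mice. At 28 mo against 3 mo, 3 of 5 endothelial markers were higher, Cdh5 (0.22), Kdr (0.19) and Pecam1 (0.17), as were 3 of 4 tested markers of neutrophils, 3 of 4 of mast cells and 1 of 5 of T cells. Of 5 fibroblast markers Dcn was higher (0.51) and Col1a1 lower (-0.28), 4 of 5 B cell markers were lower, among them Cr2 (-3.06), and 2 of 5 epithelial markers were lower, Cdh1 (-0.17) and Epcam (-0.09). The summed smooth muscle markers ranged from 531.8 to 3564 CPM at 3 mo and from 1765 to 3353 CPM at 28 mo. The part of these shifts in the levels of the macrophage genes was not tested.

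Some libraries stood apart in tissue makeup. The summed smooth muscle markers were under 1000 CPM in 4 mice, replicates 10, 12 and 16 at 3 mo and replicate 4 at 9 mo (531.8 to 868.4 CPM), and at least 1072 CPM in the rest. Replicate 16 at 15 mo had the lowest epithelial and endothelial sums (5353 and 62.0 CPM). Without the 4 mice, a setting chosen after seeing the data, 7 of the 10 genes were called at 24 mo against 15 mo and 7 at 28 mo against 3 mo, Mrc1 being the call that was lost. Without replicate 16 at 15 mo, 6 and 9 were called, since Csf1r lost its call at 24 mo against 15 mo (adjusted p = 0.12) and Lyz2 gained one at 28 mo against 3 mo (adjusted p = 0.079). With scores of smooth muscle and epithelium in the fit, 4 genes were called at 24 mo against 15 mo, and Csf1r (0.23 on the log2 scale, adjusted p = 0.12), C1qa (0.22, adjusted p = 0.105) and Lyz2 (0.23, adjusted p = 0.102) were not called, with values of 0.26, 0.24 and 0.24 without the scores.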

How the data were processed

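Colon RNA of 83 mice was sequenced from stranded polyA libraries as paired ends. The authors trimmed reads with cutadapt 2.8 and PrinSeq Lite, mapped them with HISAT2 2.1.0 to the GRCm38 mouse genome and counted uniquely mapped, properly paired fragments per gene and strand with featureCounts (Subread 2.0.1), and the deposited values are raw counts. Mice were grouped by the age in the labels.

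Counts were tested with edgeR 4.0.16 (R 4.3.3), after TMM scaling and filterByExpr (18325 of 37764 genes kept), by the quasi-likelihood test with age group and library batch as factors over all 83 mice, with Benjamini-Hochberg adjustment over all genes tested and a threshold of 0.1. Levels are CPM with TMM scaling. TPM used merged exon lengths of GENCODE M21, matched for 37652 genes, and log2 CPM a prior count of 2. Correlations were tested with 100000 permutations within age and batch (scipy 1.17.1). Intervals are 95%. The script was tested on simulated data. Alternatives were DESeq2 1.42.0, its size factors, other filters, no batch term, a replicate block, tissue scores as covariates, a threshold of 0.05, only the 2 ages compared and each batch alone. Since each group held more than 5 mice, no mouse was left out in turn.

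The macrophage genes and all lists were chosen with earlier results of these data known. From each list the text names up to 2 genes with the largest and up to 2 with the smallest log2 fold change at 28 mo against 3 mo among those called, and those called at 24 mo against 15 mo, plus Lyz1, Csf1, Il34 and Cx3cl1. A few genes that this rule names are not reported here. Genes of like pattern are the 3 with the highest r for each of 5 macrophage genes. Some genes named with a count of 5 or fewer were chosen after their values were seen. Over 649 pairs of same-age mice, counts differed by at least 10.9 times the sampling noise, so no library was repeated.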

Additional observations from a re-analysis of the deposited data

How the results depend on the processing

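Alternatives are reported for the 10 macrophage genes in the 4 steps between neighbouring ages and at 28 mo against 3 mo, where no called direction reversed. Those for the other pairs of ages are not reported here, and none were run for the other lists. The comparisons of 9 mo with 3 mo, 15 mo with 9 mo and 28 mo with 24 mo gave 0 called macrophage genes under every alternative for which calls were counted, and the joint test of the 5 ages gave 8 under each in which it was run. At 24 mo against 15 mo the adjusted p-values of 6 of the 7 called genes lay between 0.051 and 0.090, and the number called was 3 with no filter on low counts, 4 with the scores of smooth muscle and epithelium as covariates and 1, Cx3cr1, at a threshold of 0.05. With only the 2 ages it was 8, Adgre1 being added (adjusted p = 0.086), and with no batch term 6. At 28 mo against 3 mo it ran from 7 to 9, with Mrc1 lost without the filter (adjusted p = 0.12) and with the covariates (0.17), and Lyz2 gained with DESeq2 (0.085). With those covariates the test of departure from a linear course called 1 gene, Cx3cr1 (adjusted p = 0.072). The causes were not tested.

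The replicate numbers did not pair mice: over 161 pairs with the same number the median correlation of deviations was 0.010. With the replicate block 7 macrophage genes were called at 24 mo against 15 mo and 9 at 28 mo against 3 mo, Lyz2 being added (adjusted p = 0.067), with 0 in the other steps.

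The median difference of resident and general genes at 3, 9, 15, 24 and 28 mo was -0.73, -0.80, -0.72, -0.70 and -0.68 with Csf1r among the resident genes, and 0.20, 0.080, 0.12, 0.13 and 0.097 without Lyz2. With the median over genes, which rests largely on Mrc1 and Csf1r, it was -1.10 at 24 mo and -1.17 at 28 mo, and 28 mo minus 3 mo was -0.28.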
